A study of Mus musculus with 8 samples.

Results

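The genes described here are the nuclear genes for mitochondrial respiratory chain complexes I to III, measured in mouse peritoneal macrophages with and without the mineralocorticoid receptor and with and without corticosterone. The rule that chose the members uses symbols and no measured value, although the group was proposed with earlier results of these data known. It takes every gene in the platform annotation whose symbol begins with Ndufa, Ndufb, Ndufc, Ndufs, Ndufv or Uqcr, plus Sdha, Sdhb, Sdhc, Sdhd and Cyc1, each represented by the brightest of its probe sets (the highest mean of the 8 arrays). The rule found 57 of the 18193 genes measured. They were 34 subunits of complex I, 8 assembly factors of complex I (Ndufaf1 to Ndufaf8), the pair Ndufa4 and Ndufa4l2, 4 subunits of complex II and 9 subunits of complex III. A further 10 probe sets are shared between a member name and another gene and were not used, so Ndufa11 and Ndufs6 have no value here.

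All mice were male C57BL6/J and carried a floxed mineralocorticoid receptor gene. Control cells came from MR fl/fl mice and knockout cells from MR fl/fl, LysM cre mice, in which the lysozyme M locus drives Cre in myeloid cells, neutrophils included. Ages were not given in the sources used here. Every mouse had received 3% Brewer's thioglycolate, an irritant that recruits macrophages to the peritoneum, the cells were collected 4 days later and selected by adherence in 10% serum, and the cultures were then left untreated or given 1 µM corticosterone, the main glucocorticoid of mice, for 24 h. The 4 groups, control untreated, control corticosterone, knockout untreated and knockout corticosterone, hold 2 arrays each. Each array was hybridised with material pooled from triplicate experiments. A p-value here therefore reflects the spread between such pools, which may be technical. The comparisons ask whether the hormone or the receptor changes the transcripts, and whether the hormone response differs between genotypes.

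The respiratory chain of the inner mitochondrial membrane passes electrons from NADH (complex I) and succinate (complex II) through coenzyme Q to complex III and on to cytochrome c. Complexes I and III pump protons as they do so, whereas complex II, which is also an enzyme of the citric acid cycle, does not. All subunits of complex II and most of those of complexes I and III are encoded in the nucleus, and their transcription is known to depend on factors such as NRF-1, GABP and the estrogen-related receptors with their PGC-1 coactivators. In macrophages the chain is known to be remodelled on activation, when succinate and electrons running backwards into complex I feed inflammatory signals.

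Values are log2 expression levels, and a difference of 1 means a doubling. The macrophage transcripts Lyz2 and Csf1r were high on every array, at 13.58 to 13.78 and 13.52 to 13.59. Nr3c2, the gene that was floxed, read 6.39 and 8.46 in untreated control cells, 6.39 and 6.13 in control cells with hormone, 5.54 and 5.82 in untreated knockout cells and 5.11 and 5.47 in knockout cells with hormone. Each knockout array thus lay below each control array, although the labels do not place its probe set inside or outside the floxed part, and outside it the probe set would check nothing. Control untreated replicate 2 was unlike the other arrays, with a median correlation of 0.916 with the other arrays against 0.995 elsewhere and a gap between the 3′ and 5′ probe sets of Actb, a sign of broken RNA, of 2.18 against 0.41 to 0.62. Its mesothelial and fibroblast markers averaged 8.93 against 6.93 to 7.37 elsewhere, its cycling cell markers 10.13 against 7.45 to 9.003 and its macrophage markers 11.56 against 12.08 to 12.36. The comparisons of the members are therefore given from 8 arrays and from the 7 without it. Without it a lone array stands for untreated control cells, and its spread is assumed to equal that of the other groups.

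The promoters of a few members are shown first. RefSeq promoter windows on GRCm38.p6, from 250 bases before to 50 after a transcription start, were at hand for 47 of the 57 members and for 27025 genes in all. Sdhb and Ndufs8 are printed because they were the members called lower with corticosterone in both genotypes, and Uqcrc1 because it holds the longest NRF-1 motif searched and was called in control cells. The Sdhb sequence is the plus strand at chr4:140961021-140961270 and ends at the base before its start; that of Ndufs8 is the minus strand at chr19:3912775-3913024 and likewise ends at the base before its start; that of Uqcrc1 is the plus strand at chr9:108936668-108936697, the last bases of the window, within the transcribed region. Capitals mark an NRF-1 motif.
Sdhb: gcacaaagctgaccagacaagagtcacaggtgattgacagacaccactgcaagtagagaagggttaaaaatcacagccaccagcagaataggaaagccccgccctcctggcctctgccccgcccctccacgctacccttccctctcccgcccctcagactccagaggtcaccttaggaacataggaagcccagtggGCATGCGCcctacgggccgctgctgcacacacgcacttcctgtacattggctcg
Ndufs8: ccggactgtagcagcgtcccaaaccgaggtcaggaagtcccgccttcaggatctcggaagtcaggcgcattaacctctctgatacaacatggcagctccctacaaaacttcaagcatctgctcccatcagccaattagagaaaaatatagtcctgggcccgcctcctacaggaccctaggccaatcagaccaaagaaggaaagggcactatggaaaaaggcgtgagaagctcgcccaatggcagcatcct
Uqcrc1: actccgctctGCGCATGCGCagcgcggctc

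The motifs were searched in the whole window on both strands. The core that NRF-1 binds, in capitals in the Uqcrc1 sequence, stood in the windows of Ndufaf4, Ndufaf5 and Uqcrc1, or 6.38% of members against 1.07% of all genes. Its shorter form GCATGCGC, which every match to the longer one contains, stood in 7 members (14.9% against 3.05%), which added Ndufa6, Ndufa8, Sdhb and Uqcr11. In Sdhb it begins at position -54, where -1 is the base before the start. AAGATGGC, a YY1 motif, was also found in 7 members (14.9% against 3.19%), Ndufa3, Ndufa9, Ndufaf8, Ndufb8, Ndufc1, Ndufs4 and Ndufs7, and in each it began 11 to 39 bases after the start. CCGGAAGT, an ETS motif to which GABP binds, stood in 3 members (6.38% against 4.31%), and TCAAGGTCA, bound by estrogen-related receptors, stood in Sdhd alone (2.13% against 0.466%). The palindrome bound by glucocorticoid and mineralocorticoid receptors, an inverted repeat of the half-site AGAACA with a spacer, matched no member and 0.0111% of all genes, whereas the half-site matched 9 members (19.1% against 21.3%). The Ndufs8 window held none of these motifs. The shares over all genes take in every gene with a window, and genes as bright as the members were not compared separately. A match describes the letters of the window and does not show that a factor binds there.

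The transcripts of the respiratory chain were abundant and steady. On the 7 arrays 51 of the 57 members (89.5%) had a mean of at least 10 log2 units, against 26.9% of all genes, and only Ndufb4, Ndufa4l2, Ndufb1 and Ndufaf6 averaged under 8. Ndufb4 lay between 2.80 and 3.10 over the 7 arrays, the lowest of the members, and its only usable probe set may not report the gene. The distance from the lowest to the highest of the 7 arrays had a median of 0.145 over the members, with a span of 0.05 to 0.57, against a median of 0.33 over all genes. It was under 0.25 in 50 of 57 members (87.7%) and in 34.8% of all genes. Replicates of the same group differed by a median of 0.05 in control corticosterone cells, 0.044 in knockout untreated cells and 0.022 in knockout corticosterone cells, against 0.072, 0.096 and 0.077 over all genes. The members are brighter than most genes, and how far the level accounts for the steadiness was not tested.

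On control untreated replicate 2 the members were low. The median of all 57 was 11.50 there and 11.89 to 11.98 on the other arrays. Of the 57 members, 46 lay below all 7 other arrays, as did 41.1% of all genes, and 3 lay above them. Against replicate 1 the members had a median difference of -0.34 log2 units (all genes -0.06), from -1.38 in Ndufaf3, an assembly factor, to 0.98 in Ndufa4l2. Cyc1, which encodes cytochrome c1, read 9.96 there and 10.98 to 11.17 elsewhere. For Sdha, the flavoprotein of complex II, the probe sets disagreed. The chosen one read 12.53 there and 12.20 to 12.25 elsewhere, whereas the other bright one read 11.81 there and 11.99 to 12.08 elsewhere. The dim Sdha probe sets were also lowest there.

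**Figure D1:**
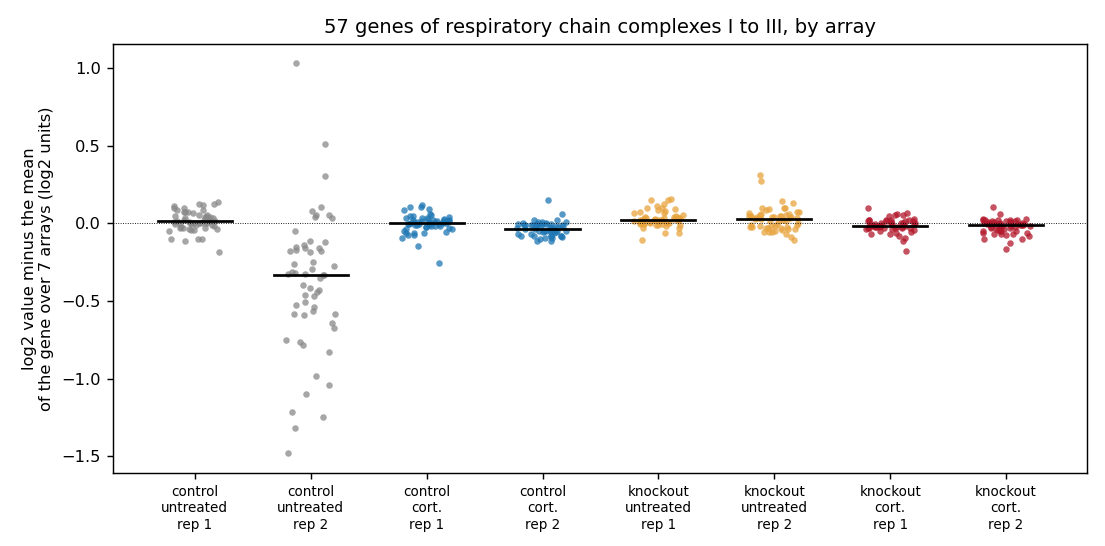
Each point is 1 of the 57 genes on 1 array, as its log2 value minus that gene's mean over the 7 arrays without control untreated replicate 2; black bars are medians and colours mark the 4 groups. Control untreated replicate 2 spreads far below and above 0, with 46 of 57 genes under all other arrays, while the other arrays stay close to 0.

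With 7 arrays corticosterone left most members within a narrow band in both genotypes, and those that were called moved by little. In control cells with 7 arrays 5 of 57 members (8.77%) passed the test, called under a limma adjusted p of 0.05, against 10.8% of all genes. Ndufs8, Sdhb, Uqcrc1 and Ndufa12 fell and Ndufaf7 rose; 5.95% of all genes fell and 4.85% rose. In knockout cells 5 members (8.77%) passed against 13.7% of all genes, and Ndufs8, Sdhb, Sdhc, Ndufa7 and Ndufa5 all fell, as did 7.95% of all genes, while no member rose against 5.75% of all genes. In these fits the share of members called was thus no higher than the background in either genotype. Fewer members were called in control cells when any 1 corticosterone array was left out. In knockout cells fewer were called when either knockout corticosterone array was left out. The shares of all genes called after leaving out an array are not given here. The median difference over the members was -0.03 in control and -0.03 in knockout cells, against -0.00 and -0.02 over all genes, and the median size regardless of sign was 0.045 and 0.052 against 0.118 and 0.102. With 7 arrays the 95% interval of the difference lay within 0.25 log2 units of 0 for 46 of 57 members in control cells and 51 in knockout cells. It was widest in both for Ndufa4l2, where it reached 0.64 and 0.63 from 0. With 8 arrays the interval lay within 0.25 of 0 for only 11 members in control cells and 9 in knockout cells, so the narrow band rests on leaving out that array.

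The small differences leaned downwards. In knockout cells the fitted difference was below 0 for 42 members (73.7%, against 55.4% of all genes), and in control cells for 38 (66.7%, against 51.2%). Both knockout corticosterone arrays lay below both knockout untreated arrays in 28 members (49.1%), against 28.8% of all genes, and above them in 3 members, against 21.8% of all genes. Taking the 4 corticosterone arrays against the 3 untreated arrays, all hormone arrays were lower in 16 members (28.1%), against 14.4% of all genes, and higher in Ndufaf7 and Ndufv3 only, against 11.2%. The 16 were Ndufa2, Ndufa7, Ndufab1, Ndufb2, Ndufb6, Ndufb7, Ndufs4, Ndufs8 and Ndufv1 of complex I, Sdha, Sdhb and Sdhc of complex II, Ndufa4l2, and Cyc1, Uqcr10 and Uqcrc1 of complex III. With control untreated replicate 2 kept, the chosen probe sets of only Ndufs4, Sdha and Ndufa4l2 had all hormone arrays below all untreated arrays. Ndufaf7 and Ndufv3 stayed higher with that array kept. The shares over all genes with that array kept are not given here, so these members are not set against a background. Other probe sets of the same gene did not all share the direction: both others of Uqcr10 had positive differences, 0.02 and 0.15 in control cells and 0.03 and 0.22 in knockout cells, and those of Ndufab1, Ndufb2 and Sdha were split in sign in each genotype. These counts are descriptions, since no test was made over the members together, and an exact permutation test of 2 arrays against 2 cannot go below p = 0.333 for a gene.

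With all 8 arrays no member passed in either hormone comparison by limma, where 0.17% of all genes passed in control cells and 0.148% in knockout cells. At an unadjusted p under 0.05 there was 1 member in control cells (8.55% of all genes) and 0 in knockout cells (4.6% of all genes). The median over members was then 0.14 in control cells (all genes 0.01), so the sign of the control comparison turned with that array, and -0.03 in knockout cells. The members with the smallest p, none of which passed, were Ndufaf7 (0.43), Uqcrq (0.44) and Ndufaf1 (-0.34) in control cells, each at an adjusted p of 0.43, and Ndufa5 (-0.14), Ndufaf2 (-0.19) and Ndufc2 (-0.08) in knockout cells, each at an adjusted p of 1.

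Markers of other cells moved with the hormone on the 7 arrays. Of 8 B cell markers 6 fell in each genotype, and their mean was 7.09 to 7.30 on the untreated arrays and 6.20 to 6.32 on the corticosterone arrays. Of 8 T and NK cell markers 6 fell in each genotype, from 7.06 to 7.23 down to 5.93 to 6.15, and 1 rose in knockout cells. Of 7 cycling cell markers 6 fell in each genotype, in control cells from 8.26 to between 7.45 and 7.56 and in knockout cells from 8.888 and 9.003 to between 8.06 and 8.31. Of 6 mast cell and basophil markers 3 rose in each genotype, from 4.75 to 5.03 up to 5.40 to 5.61, and of 8 macrophage markers 4 rose and 1 fell, the mean going from 12.08 to 12.14 up to 12.35 to 12.36. Of 10 mesothelial and fibroblast markers 1 fell in control cells and 2 rose in knockout cells. Of 4 eosinophil markers 1 fell in each genotype, of 6 neutrophil markers 1 fell in knockout cells, and of 2 red cell markers 1 rose in control cells. With 8 arrays fewer of these markers were called. There 1 macrophage marker was up in each genotype, 2 T and NK cell markers were down in knockout cells and 1 eosinophil marker was down in control cells. No marker of the remaining lists was called with 8 arrays. No marker reads 0 on this scale. In such bulk samples fewer cells of a type and less RNA per cell cannot be told apart, and the part of these shifts in the results below was not tested.

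**Figure D2:**
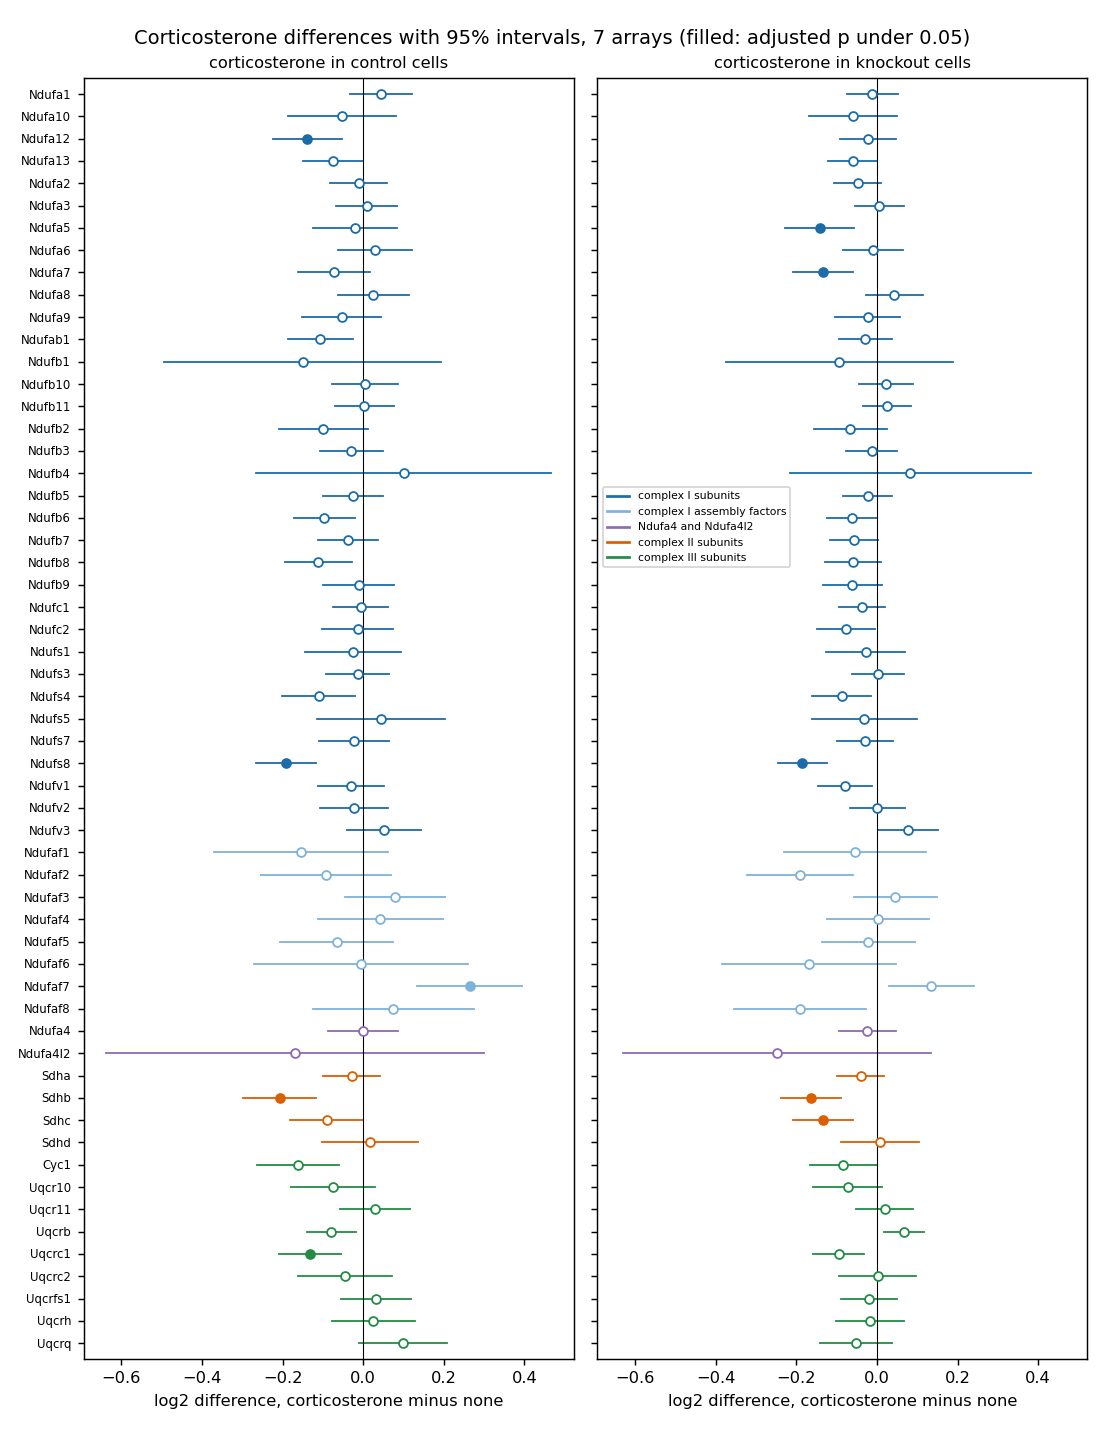
Fitted log2 difference of corticosterone minus none for each of the 57 genes, with its 95% interval from the 7 array fit, in control cells (left) and knockout cells (right); filled points passed an adjusted p of 0.05. Most intervals span 0 and stay within 0.25 of it, and the filled points lie below 0 except Ndufaf7 in control cells.

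Among the subunits of complex I that carry its redox groups, Ndufs8 was the one called. Ndufs8, an iron-sulfur subunit close to the site where coenzyme Q is reduced, read 12.45 and 11.92 in untreated control cells, 12.28 and 12.24 in control cells with hormone, 12.44 and 12.42 in untreated knockout cells and 12.24 and 12.25 in knockout cells with hormone. Setting aside control untreated replicate 2, the untreated arrays of both genotypes lay within 12.42 to 12.45 and the hormone arrays within 12.24 to 12.28, with no overlap. With 7 arrays Ndufs8 fell by 0.19 log2 units in control cells (SE 0.033, adjusted p = 0.00486), a decrease of 12.4%, and by 0.19 in knockout cells (SE 0.027, adjusted p = 0.00138), a decrease of 12.1%. The fits without the variance trend ended both calls (adjusted p = 0.155 and 0.0924), and the other alternatives kept them, with adjusted p from 0.00233 and 0.000821 upward. With 8 arrays the difference was 0.08 (SE 0.17, adjusted p = 0.787) in control cells and -0.19 (SE 0.17, adjusted p = 1) in knockout cells.

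Ndufs8 is read by 6 probe sets, some of which can bind more than 1 transcript, and all gave the same direction. On the 7 arrays the other 5 had differences of -0.18 to -0.11 in control cells and -0.19 to -0.13 in knockout cells. The probe sets share the RNA of each array, so they repeat the measurement and do not replicate the cultures.

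**Figure D3:**
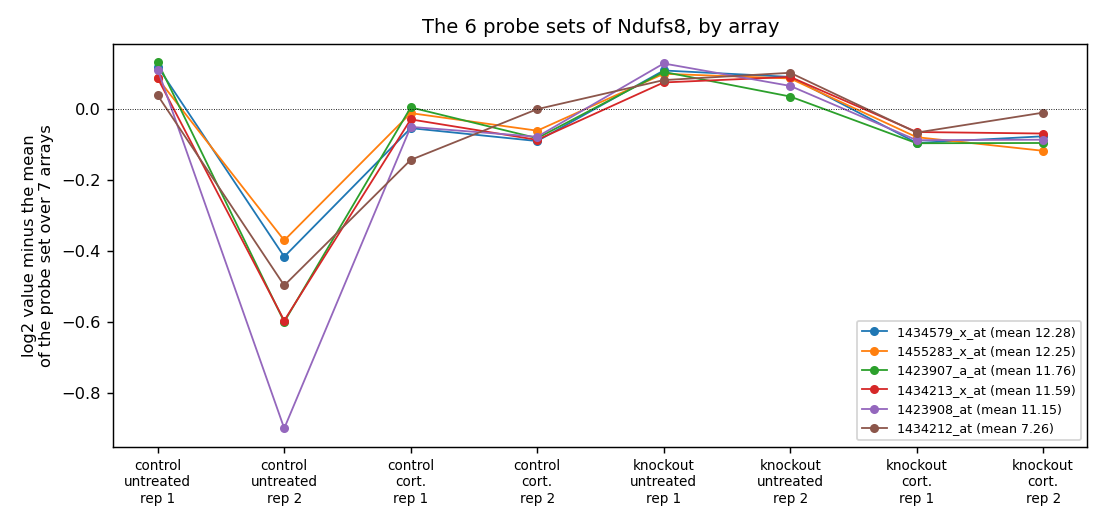
The 6 probe sets of Ndufs8 on the 8 arrays, each as its log2 value minus its own mean over the 7 arrays. All 6 lie above 0 on the untreated arrays other than control untreated replicate 2 and at or below about 0 on the corticosterone arrays.

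The other redox subunits of complex I were not called. Ndufs1, the largest iron-sulfur subunit, read 11.27 and 10.81, 11.27 and 11.23, 11.30 and 11.18, and 11.21 and 11.22 on the control untreated, control corticosterone, knockout untreated and knockout corticosterone arrays, which overlap apart from control untreated replicate 2. Its hormone difference with 7 arrays was -0.03 (SE 0.053, adjusted p = 0.861) in control and -0.03 (SE 0.043, adjusted p = 0.778) in knockout cells. Ndufv1, which binds NADH and the flavin that takes its electrons, read 11.80 and 11.46, 11.74 and 11.79, 11.82 and 11.82, and 11.75 and 11.73 in the same order. Its hormone arrays were lower than its 3 untreated arrays by a margin that did not pass, at -0.03 (SE 0.037, adjusted p = 0.722) in control and -0.08 (SE 0.030, adjusted p = 0.128) in knockout cells. Ndufv2, an iron-sulfur subunit beside Ndufv1, spanned only 0.05 log2 units over the 7 arrays. Ndufs7, another iron-sulfur subunit, spanned 0.12. Ndufs3, which is not one of the redox subunits, spanned 0.06.

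Of the accessory subunits of complex I, which surround the catalytic core, Ndufa12 was called in control cells and Ndufa7 and Ndufa5 in knockout cells. Ndufa12 read 12.57 and 11.86 in untreated control cells, 12.47 and 12.40 in control cells with hormone, 12.46 and 12.42 in untreated knockout cells and 12.43 and 12.40 in knockout cells with hormone. Control untreated replicate 1 was the highest of the 8, and the remaining 6 arrays of the 7 lay within 12.40 to 12.47. With 7 arrays Ndufa12 fell by 0.14 in control cells (SE 0.038, adjusted p = 0.0479), while the difference in knockout cells was -0.02 (SE 0.031, adjusted p = 0.735). The call was lost in 8 of 12 alternatives, with adjusted p from 0.0233 to 0.338: without control corticosterone replicate 1 or 2 it was 0.0562 and 0.224, and without knockout corticosterone replicate 1 or 2 it was 0.0867 in each. The 2 other bright Ndufa12 probe sets, with means of 12.32 and 12.02, gave -0.01 and -0.03 in control cells and so do not bear out the size of the call, and a dim one with a mean of 5.11 gave -0.32. With 8 arrays the difference was 0.22 (SE 0.22, adjusted p = 0.552).

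Ndufa7 read 11.89 and 11.63, 11.84 and 11.80, 11.98 and 12.05, and 11.87 and 11.89 in the same order of groups, so the knockout untreated arrays were the highest. With 7 arrays Ndufa7 fell by 0.13 in knockout cells (SE 0.033, adjusted p = 0.0241), against -0.07 (SE 0.040, adjusted p = 0.346) in control cells. Its 4 other probe sets gave -0.26 to -0.14 in knockout cells. The call was lost in 4 of 13 alternatives (adjusted p from 0.00816 to 0.213), among them those without knockout untreated replicate 2 (0.0948) and without knockout corticosterone replicate 1 (0.148) or 2 (0.116).

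Ndufa5 read 12.12 and 12.18, 12.13 and 12.07, 12.16 and 12.26, and 12.09 and 12.06. The corticosterone arrays of the knockout were below its untreated arrays, whereas the control arrays overlapped. With 7 arrays Ndufa5 fell by 0.14 in knockout cells (SE 0.038, adjusted p = 0.0362), and the difference in control cells was -0.02 (SE 0.046, adjusted p = 0.870). Its other probe set gave -0.13 and -0.02. The call was lost in 8 of 13 alternatives (adjusted p from 0.00501 to 0.245), among them those without control corticosterone replicate 1 (0.0622) or 2 (0.0619), knockout untreated replicate 2 (0.142) and knockout corticosterone replicate 1 (0.109) or 2 (0.209). For neither Ndufa12, Ndufa7 nor Ndufa5 did the genotypes differ in their hormone difference beyond the test, with interactions of 0.12, -0.06 and -0.12 and adjusted p of 0.839, 0.946 and 0.885. The members of complex I next in line in control cells, none called, were Ndufab1, the mitochondrial acyl carrier protein (-0.11, adjusted p = 0.105), Ndufb8 (-0.11, adjusted p = 0.106) and Ndufs4 (-0.11, adjusted p = 0.130).

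The assembly factors build complex I and are not part of the finished enzyme. Their SEs with 7 arrays were larger than those of the subunits, with a median of 0.070 in control and 0.057 in knockout cells against 0.037 and 0.031. The assembly factors are mostly dimmer than the subunits, and the variance trend of the fit lets the SE follow the level. How far the level accounts for the larger SEs was not tested. Ndufaf7, a methyltransferase that modifies a core subunit during assembly, read 10.23 and 9.89 in untreated control cells, 10.52 and 10.47 in control cells with hormone, 10.40 and 10.30 in untreated knockout cells and 10.46 and 10.51 in knockout cells with hormone. Every hormone array was above every untreated array, control untreated replicate 2 included. With 7 arrays Ndufaf7 rose by 0.26 in control cells (SE 0.058, adjusted p = 0.0174), an increase of 20.1%, and differed by 0.14 (SE 0.047, adjusted p = 0.0995) in knockout cells. With 8 arrays the control difference was 0.43 (SE 0.14, adjusted p = 0.430). The call was lost in 3 of 12 alternatives (adjusted p from 0.00475 to 0.129): without control corticosterone replicate 1 (0.119) or 2 (0.0742) and without the variance trend (0.129).

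The 7 other assembly factors were not called. Ndufaf2, which resembles Ndufa12 and takes its place in an assembly intermediate, read 10.31 and 10.14 in untreated knockout cells and 10.04 and 10.03 in knockout cells with hormone, a difference of -0.19 (SE 0.058, adjusted p = 0.0633). Ndufaf8, which stabilises Ndufaf5, read 11.16 and 11.41 in untreated knockout cells and 11.11 and 11.07 with hormone, a difference of -0.19 (SE 0.072, adjusted p = 0.132). Ndufa4, now placed with complex IV although named for complex I, stayed within 11.93 to 12.00 on the 7 arrays. Ndufa4l2, its paralog known for induction by hypoxia, was dim at 4.48 to 5.05.

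In complex II, Sdhb was called lower in both genotypes and Sdhc in knockout cells. Sdhb, the iron-sulfur subunit that carries electrons from the flavin towards coenzyme Q, read 12.38 and 11.93 in untreated control cells, 12.21 and 12.14 in control cells with hormone, 12.38 and 12.32 in untreated knockout cells and 12.18 and 12.20 in knockout cells with hormone. As with Ndufs8, all 4 hormone arrays lay below the 3 untreated arrays of the 7. Sdhb fell by 0.21 in control cells (SE 0.040, adjusted p = 0.00922), a decrease of 13.4%, and by 0.16 in knockout cells (SE 0.033, adjusted p = 0.00883), a decrease of 10.7%, with 7 arrays. The control call was lost when control corticosterone replicate 2 was left out (adjusted p = 0.0707) and when no variance trend was fitted (adjusted p = 0.171, the highest of 12 alternatives, the lowest being 0.00259). The knockout call was lost without knockout corticosterone replicate 1 (0.0763) or 2 (0.0512) and without the trend (0.158, the highest of 13, the lowest being 0.00413). With 8 arrays the differences were 0.02 (SE 0.14, adjusted p = 0.949) and -0.16 (SE 0.14, adjusted p = 1).

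Sdhc, a membrane anchor that holds heme and helps form the coenzyme Q site, read 11.87 and 11.07, 11.80 and 11.75, 11.92 and 11.87, and 11.78 and 11.74 in the same order. Its hormone arrays were again below its 3 untreated arrays. Sdhc fell by 0.13 in knockout cells (SE 0.033, adjusted p = 0.0257) and differed by -0.09 (SE 0.040, adjusted p = 0.228) in control cells. Its other probe set gave -0.14 and -0.12. The call was lost in 4 of 13 alternatives (adjusted p from 0.0165 to 0.213), among them those without knockout untreated replicate 1 (0.0726) and knockout corticosterone replicate 1 (0.0714) or 2 (0.203).

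The remaining subunits of complex II were not called. Sdha, which oxidises succinate, read 12.25 and 12.53, 12.23 and 12.21, 12.25 and 12.24, and 12.21 and 12.20, a span of 0.05 over the 7 arrays and among the narrowest of the members. Its hormone difference was -0.03 (SE 0.032, adjusted p = 0.695) in control and -0.04 (SE 0.026, adjusted p = 0.393) in knockout cells. Sdhd, the other anchor, gave 0.02 and 0.01.

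In complex III, Uqcrc1 was called lower with hormone in control cells. Uqcrc1, a core protein related to processing peptidases, read 11.95 and 11.44 in untreated control cells, 11.81 and 11.82 in control cells with hormone, 11.97 and 12.00 in untreated knockout cells and 11.89 and 11.89 in knockout cells with hormone. Its hormone arrays were below the 3 untreated arrays, and those of the control were below those of the knockout. With 7 arrays Uqcrc1 fell by 0.13 in control cells (SE 0.034, adjusted p = 0.0402), and the difference in knockout cells was -0.10 (SE 0.028, adjusted p = 0.0559). The control call was lost in 6 of 12 alternatives (adjusted p from 0.0223 to 0.284), among them those without control corticosterone replicate 1 (0.158) or 2 (0.131) and knockout corticosterone replicate 1 (0.0891) or 2 (0.0894). With 8 arrays it was 0.12 (SE 0.16, adjusted p = 0.651).

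The subunits that carry electrons through complex III did not pass. Cyc1 read 11.17 and 9.96, 11.03 and 10.98, 11.08 and 11.12, and 11.01 and 11.02, with the hormone arrays lowest among the 7. Its differences were -0.16 (SE 0.045, adjusted p = 0.0507) in control and -0.08 (SE 0.037, adjusted p = 0.197) in knockout cells. Uqcrfs1, the Rieske iron-sulfur protein, read 11.65 and 11.16, 11.70 and 11.66, 11.68 and 11.69, and 11.64 and 11.68, with differences of 0.03 (SE 0.038, adjusted p = 0.725) and -0.02 (SE 0.031, adjusted p = 0.775).

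**Figure D4:**
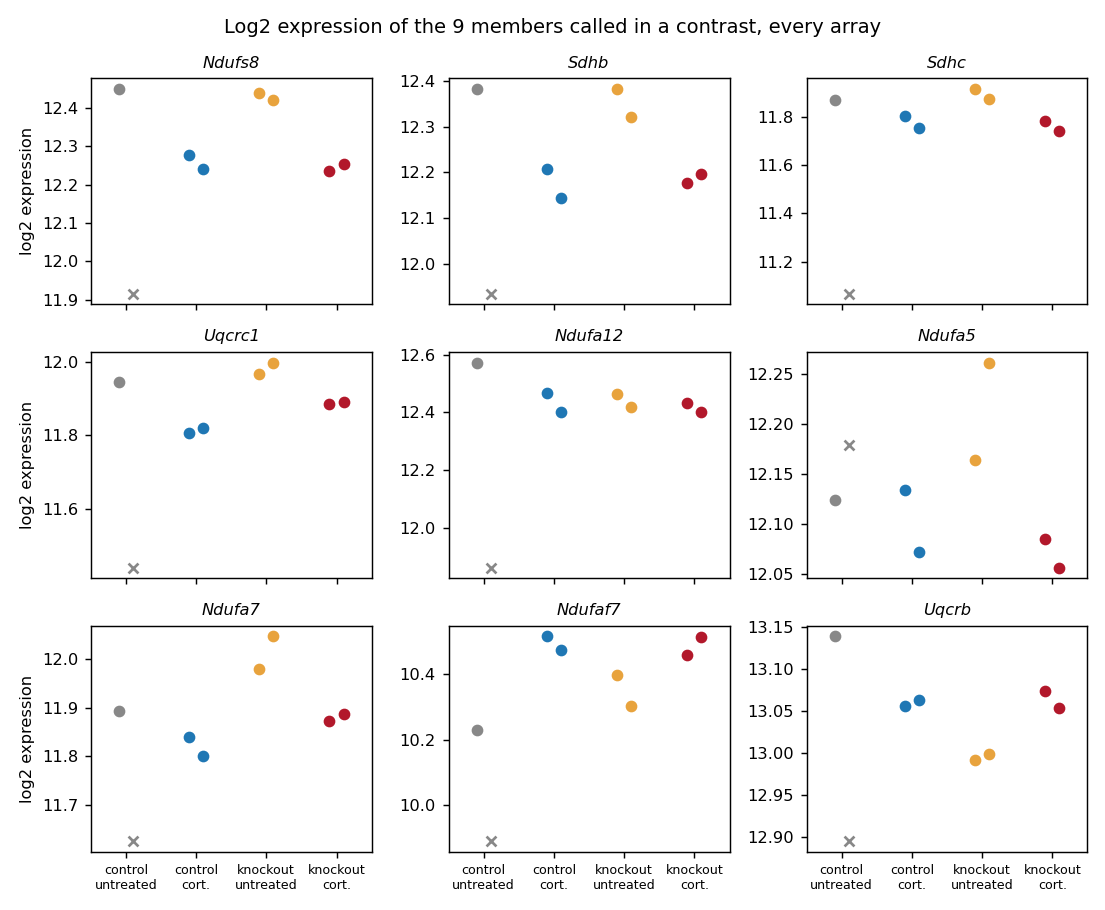
Log2 expression of the 9 members called in a comparison, with 1 point per array in each of the 4 groups and a cross for control untreated replicate 2; each panel has its own axis, which does not start at 0. Ndufs8 and Sdhb lie lower on all hormone arrays than on the untreated arrays other than the cross, and Ndufaf7 lies higher.

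Few differences between the genotypes passed the test, and those of the members were small. Without corticosterone and with 7 arrays 1 of 57 members (1.75%) passed, against 1.99% of all genes, and the median difference of knockout minus control was 0.02 (all genes 0.01). The 95% interval lay within 0.25 of 0 for 49 members. The member was Uqcrb, a small subunit of complex III, which read 13.14 and 12.89 in untreated control cells and 12.991 and 12.999 in untreated knockout cells, so the knockout lay between the control replicates. On the corticosterone arrays Uqcrb read 13.06 and 13.06 in control and 13.07 and 13.05 in knockout cells. Uqcrb was lower by 0.14 log2 units (-0.14, SE 0.027, adjusted p = 0.0307) in untreated knockout cells against the lone control array, and its other probe set gave -0.08. The call was lost in 9 of 12 alternatives (adjusted p from 0.0185 to 0.391), among them those without control corticosterone replicate 1 (0.0778) or 2 (0.0783) or knockout corticosterone replicate 1 (0.0868) or 2 (0.0867), with the mean of the probe sets (0.132), after cyclic loess (0.0967) and from only the arrays compared (0.258). With 8 arrays no member and 0.0% of all genes passed, at an unadjusted p under 0.05 there was 1 member (4.44% of all genes), and the median over members was 0.20. The members with the smallest p were then Ndufa7 (0.25), Ndufaf8 (0.72) and Uqcrq (0.49), each at an adjusted p of 0.486. In that fit the 95% interval lay within 0.25 of 0 for 8 members.

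With corticosterone in both genotypes the 4 arrays compared exclude the one that stands apart. No member passed with 7 arrays by limma, against 1.63% of all genes, and 3 had an unadjusted p under 0.05 (9.82% of all genes). The median difference was 0.00 (all genes 0.00), and the members ran from -0.13 to 0.08. The interval lay within 0.25 of 0 for 53 of 57 with 7 arrays and for 13 with 8 arrays. The smallest p belonged to Ndufa13, also known as GRIM-19 (-0.09, SE 0.027, adjusted p = 0.222), Uqcrc1 (0.07, SE 0.028, adjusted p = 0.406) and Ndufab1 (0.07, SE 0.029, adjusted p = 0.468). Cycling cell markers were higher in the knockout in 6 of 7 cases here and in 3 of 7 without hormone, and the part of this in the member values was not tested. With 8 arrays no member and 0.0% of all genes passed, 0 members had an unadjusted p under 0.05 (1.26% of all genes), and the smallest p belonged to Ndufaf2 (-0.13), Uqcrc2 (-0.05) and Ndufs4 (0.05), each at an adjusted p of 1.

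The hormone difference was not shown to depend on the receptor for any member. In the test of the interaction 0 members passed with 7 arrays by limma, against 0.0165% of all genes, and 4 had an unadjusted p under 0.05 (5.85% of all genes): Uqcrb (0.15, SE 0.035), Uqcrq (-0.15, SE 0.063), Ndufa12 (0.12, SE 0.049) and Ndufaf8 (-0.26, SE 0.11), at adjusted p of 0.765, 0.836, 0.839 and 0.850. The hormone comparisons of the genotypes share no array, and the interaction of Ndufs8 was 0.01 with a 95% interval of -0.09 to 0.10 and that of Sdhb 0.04 with an interval of -0.07 to 0.16. With 7 arrays the interval lay within 0.25 of 0 for 46 members, so an interaction of that size could not be seen or set aside for the other 11. In the 8 array fit it lay within 0.25 of 0 for 1 member. With 8 arrays no member and 0.0% of all genes passed, 0 members had an unadjusted p under 0.05 (1.09% of all genes), the median over members was -0.20, and the smallest p belonged to Ndufaf8 (-0.73), Uqcrq (-0.49) and Ndufaf7 (-0.30), each at an adjusted p of 0.719.

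The rest of the pathway was described from lists drawn up by function, with earlier results of these data known, and counts are from 7 arrays. Of 10 measured subunits of complex IV, which passes electrons from cytochrome c to oxygen, 0 were called with hormone in either genotype, and their median difference was -0.01 and 0.00. Of 16 ATP synthase subunits, Atp5b, which carries the catalytic sites, fell in control cells (-0.11, adjusted p = 0.0393) and none was called in knockout cells. Of 17 further assembly factors of complexes I to III, Uqcc2 fell in knockout cells (-0.16, adjusted p = 0.0192) and none was called in control cells. Among 12 genes of the mobile carriers and coenzyme Q synthesis, Coq7, a hydroxylase of that synthesis, fell in both genotypes: it read 10.99 and 10.95 in untreated control cells, 10.83 and 10.75 in control cells with hormone, 11.02 and 11.01 in untreated knockout cells and 10.69 and 10.71 in knockout cells with hormone. All 4 Coq7 hormone arrays were below all 4 untreated arrays, with differences of -0.20 (SE 0.048, adjusted p = 0.0267) and -0.31 (SE 0.040, adjusted p = 0.000621). Coq3, a methyltransferase of the same route, fell in knockout cells (-0.26, adjusted p = 0.0466).

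In the citric acid cycle, which supplies NADH and succinate to the chain, Suclg1 fell in control cells (-0.19, adjusted p = 0.0156; with 8 arrays the difference turned to 0.17, adjusted p = 0.644), and in knockout cells Idh2 fell (-0.15, adjusted p = 0.0371) and Suclg2 rose (0.29, adjusted p = 0.0169), out of 13 genes. Among 16 regulators of respiratory gene transcription and mitochondrial DNA, Ppargc1b, which encodes the coactivator PGC-1beta, fell in both genotypes. Ppargc1b read 7.60 and 6.27 in untreated control cells, 6.81 and 6.65 in control cells with hormone, 7.46 and 7.38 in untreated knockout cells and 6.86 and 6.83 in knockout cells with hormone. Its differences of -0.87 (SE 0.13, adjusted p = 0.00225) and -0.57 (SE 0.11, adjusted p = 0.00575) were larger in size than that of any member with 7 arrays. The control value rests on the lone untreated array, since with 8 arrays it was -0.20 (SE 0.43, adjusted p = 0.781), smaller than the differences of several members in that fit, which ran from -0.66 to 0.77. The knockout value with 8 arrays was -0.57 (SE 0.43, adjusted p = 1). Ssbp1, which coats single-stranded mitochondrial DNA, fell in control cells (-0.17, adjusted p = 0.0396). Tfam, which packages mitochondrial DNA, was higher in untreated knockout than control cells (0.49, adjusted p = 0.0147), with 9.46 on the lone control array, 11.28 on control untreated replicate 2 and 9.89 and 10.00 in the knockout, so the knockout again lay between the control replicates. With 8 arrays the Tfam difference turned to -0.42 (SE 0.55, adjusted p = 0.643). With 8 arrays none of these genes was called, and the control differences of Atp5b, Coq7 and Ssbp1 were -0.03, -0.18 and -0.22.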

How the data were processed

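RNA was measured on Affymetrix mouse arrays, 8 in 4 groups of 2. The authors deposited log2 values, 1 per probe set and array, made by RMA in R 2.7 per the submitters' processing notes; RMA makes array distributions alike, so a change in the total RNA of a cell cannot show, and no detection call is given. Of 45101 probe sets 64 were controls, 34945 had 1 gene, 932 several and 9160 none named here; symbols were updated through the GRCm38.p6 gene table for 34741 and kept for 204. Each gene took its probe set with the highest mean, and 30 members had more than 1.

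All 18193 genes were fitted with limma 3.58.1 (R 4.3.3), with 1 coefficient per group, shared variance and a variance trend, and adjusted p-values by Benjamini-Hochberg over all genes; 4 residual degrees of freedom remained for 8 arrays and 3 for 7. Members named in full were the catalytic subunits and up to 5 called in each direction per comparison, or the 3 with the smallest p where none was called; others were named for their size, level or role. The members, the lists and the use of 7 arrays were chosen with earlier results of these data known. The main fits did not pair the samples by replicate number. Correlations of same-numbered deviations ran from -0.292 (control untreated with knockout corticosterone) to 0.397 (control untreated with knockout untreated). Both ends involve the group with the array that stands apart, so they do not settle whether same-numbered samples were handled together. Alternatives left out each array in turn, dropped the trend, averaged probe sets, kept genes with a mean of at least 6, applied cyclic loess, array weights or a replicate block, or fitted only the arrays compared.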

Additional observations from a re-analysis of the deposited data

How the results depend on the processing

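Leaving out 1 array moved the count of members called, with 8 arrays, over 0 to 47 for corticosterone in control cells (median difference -0.026 to 0.32), 0 to 5 in knockout cells, 0 to 49 for knockout against control without corticosterone (median 0.0195 to 0.39) and 0 to 47 for the interaction (median -0.38 to -0.0070). The highest counts for corticosterone in control cells, the untreated genotypes and the interaction came from the same fit. In each of these comparisons that fit also called most of all genes, so the counts are not read as a result about the members. It left out control untreated replicate 1, so that control untreated replicate 2 alone stood for its group. Between the fits without replicate 2 and without replicate 1 of that group the hormone difference in control cells went from -0.14 to 0.57 in Ndufa12, -0.19 to 0.34 in Ndufs8, -0.21 to 0.24 in Sdhb and -0.13 to 0.37 in Uqcrc1, and the genotype difference in untreated cells from -0.14 to 0.10 in Uqcrb. For the hormone in knockout cells 4 members were called from only the arrays compared and 4 with array weights.

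With 7 arrays, leaving out 1 more lowered or raised the number of members called, depending on the array. This held for both hormone comparisons and for knockout against control without corticosterone. The median over members for the hormone in control cells ran from -0.048 to -0.0058. The median over members ran from -0.022 to 0.015 for knockout against control with corticosterone and from -0.022 to 0.018 for the interaction. Without the variance trend 0 members were called in either hormone comparison or between untreated genotypes. That genotype count was also 0 with the mean of the probe sets (median -0.0026), cyclic loess and only the arrays compared, and the filter on low values gave 8 members for the hormone in knockout cells. The replicate block gave 3, 4 and 0 members for the hormone in control cells, the hormone in knockout cells and the untreated genotypes, and 0 in the other comparisons and in all with 8 arrays. The share of all genes called is not given for the alternative fits of this section, and the filter also changes the genes tested. Their counts are therefore not set against a background. The cause of the changes between fits was not tested. Comparisons that need the control untreated group could not be fitted without both of its arrays.

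The main limits are the lone control untreated array of the 7 array fit, 2 pooled samples in each other group, and log2 levels without a detection call, so that the signal of dim members over background is not known. Differences under about 0.1 log2 units are near the precision of the 7 array fit, and the 8 array fit is less precise.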
